A study of Arabidopsis thaliana with 12 samples.

Results

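The transcripts described here come from the mitochondrial genome of *Arabidopsis thaliana*. Its genes were taken as all probe sets paired with a locus of the ATMG series, and 27 such loci, each read by 1 probe set, were found among 22588 loci tested. Of the 27 loci, 7 code for a protein of known function and 20 are annotated as hypothetical proteins or open reading frames (ORFs). The platform annotation names no ATMG locus, so 10 further mitochondrial genes that it gives only by symbol are described beside the 27.

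The 12 arrays hold RNA of shoot apical meristems (SAMs) from plants of about 28 days that carry 35S::WUS-GR in the ap1-1;cal1-1 background. WUS-GR is the stem cell factor WUSCHEL fused to a steroid receptor domain, driven by a ubiquitous promoter, so that the fusion is present outside the normal WUS domain in all groups, controls included. There were 3 arrays each of SAMs treated for 4 h with 10 µM dexamethasone (Dex), which activates WUS-GR, together with 10 µM cycloheximide (Cyc), an inhibitor of cytosolic protein synthesis, with Cyc alone, with Dex alone, or with a mock solution (Mock). The study's text places the Dex+Cyc and Cyc treatments in experiments of their own, apart from the Dex and Mock treatments, so that Cyc and experiment cannot be told apart in any comparison of arrays with Cyc and arrays without it. The ap1-1;cal1-1 mutations make meristems proliferate in place of flowers, and nothing in the labels says whether the 3 arrays of a group came from separate sets of plants, so that p-values measure the spread between these arrays, which may be technical.

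The plant mitochondrial genome keeps a small set of genes for the respiratory chain, for the ATP synthase, for cytochrome c maturation and for the organelle's own ribosome. All other subunits of these complexes are nuclear genes, translated on cytosolic ribosomes and imported. Plant mitochondrial transcripts are made by phage-type RNA polymerases encoded in the nucleus, are spliced and edited, and mostly lack a stable poly(A) tail. The standard labelling for this array primes on poly(A), so the signals here need not follow the total amount of a mitochondrial RNA. A large piece of mitochondrial DNA also lies in chromosome 2 of the nucleus, and a probe set cannot tell a mitochondrial transcript from one of an identical nuclear copy.

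Signals are on the linear scale of the deposited values, on which each array has a trimmed mean of 500, and are not comparable between genes because probe sets differ in response. Mean signals of the 27 loci over the 12 arrays lay between 2.92 and 872, and 15 of the loci averaged under 50. Only 4 of the 27 (nad4, nad9, ATMG00660 and ATMG01000) had a mean log2 signal at or above the median of all loci, 7.84. The spread between replicates was large for the dim genes: the SD of log2 signal within groups had a median of 0.86 over the 23 dimmer loci and 0.35 over the 4 brighter ones, against 0.27 over all loci. Of the 13 mitochondrial loci with a mean log2 signal of at least 5, 6 had a within-group SD above the upper quartile of loci of like signal.

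**Figure D1:**
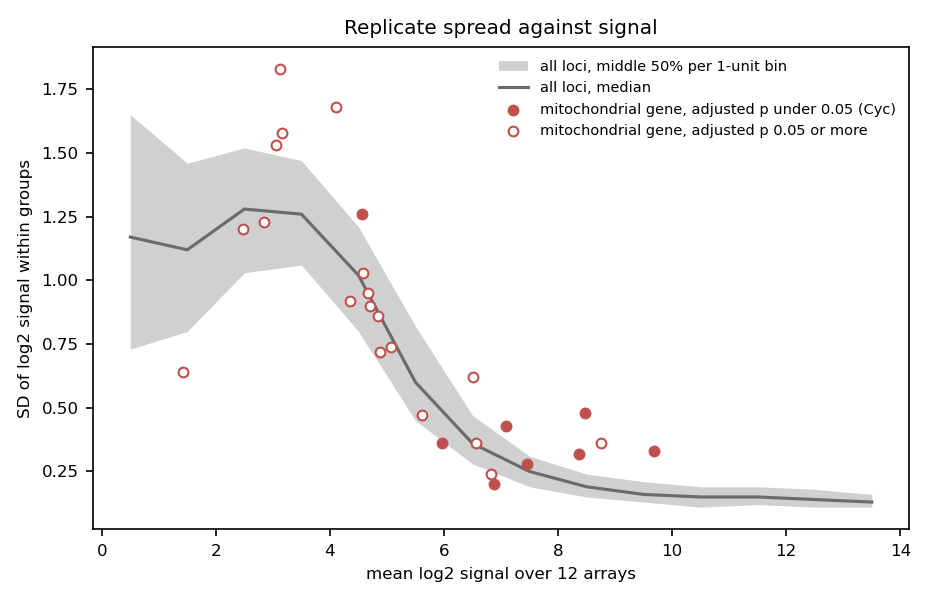
SD of log2 signal within groups (vertical axis) against mean log2 signal over the 12 arrays (horizontal axis). Circles are the 27 mitochondrial loci, filled where the mean effect of Cyc had an adjusted p under 0.05, and the line and band give the median and the middle 50% of all loci in bins of 1 log2 unit with at least 100 loci. Of the filled circles, 7 lie at a mean log2 signal of at least 5, and the dim loci have SDs up to 1.83.

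Values of single arrays are given in the order of replicates 1, 2 and 3. Adjusted p-values are limma's, by Benjamini-Hochberg over all 22588 loci. A call required an adjusted p under 0.01 and a change of at least 2-fold, and changes with an adjusted p under 0.05 and no limit on fold were counted as well. Since RNA was pooled over all cells of a SAM, fewer cells of a type and less RNA per cell cannot be told apart. CLV3, a WUS target, served as the check of the Dex label and averaged 912 ± 157 in Dex SAMs and 85.9 ± 37.2 in Mock SAMs (SD, n = 3 each), a log2 fold change of 3.48 ± 0.40 (SE, limma adjusted p = 0.00234).

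The first question was whether mitochondrial transcripts differed between SAMs with protein synthesis blocked and SAMs without Cyc. No mitochondrial locus was called at 2-fold in Cyc against Mock SAMs, in Dex+Cyc against Dex SAMs, or in the mean of the 2 effects (0 of 27 in each), where 15.6%, 14.2% and 16.2% of all loci met the rule. At an adjusted p under 0.05, 8 of the 27 loci were lower with Cyc in the mean effect and 0 were higher. These were nad4, nad4L and nad9, the ATP synthase gene atp4, and the ORFs ATMG00010, ATMG00630, ATMG00660 and ATMG00690. Among all loci 32.3% were lower and 18.3% higher by the same rule, so the share of mitochondrial loci that were lower, 29.6%, is near the background. With quantile normalization 12 of the 27 were lower, against 33.4% of all loci. Without a threshold, 23 of the 27 loci had a negative mean effect of Cyc, against 58.1% of all loci, and 10, all negative, had an unadjusted p under 0.05, a share near the 34.9% of all loci that were lower by that rule. Their median log2 fold change was -0.54, against -0.16 over all loci. With the dimmest 40% of loci left out, 6 of the 8 remaining mitochondrial loci were lower at an adjusted p under 0.05, against 51.6% of the 13553 loci then tested. nad4, nad4L and ATMG00690 passed in each of the 12 fits that left out 1 array, and the other 5 loci each lost the call in at least 4 of them.

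The Cyc effect was measured without and with Dex, in comparisons that share no array but both span the experiments with and without Cyc. In Cyc against Mock SAMs 2 of 27 mitochondrial loci were lower at an adjusted p under 0.05 (nad4L and ATMG00140), where 26.5% of all loci were. In Dex+Cyc against Dex SAMs 4 were lower (nad4, nad4L, ATMG00400 and ATMG00690), where 24.7% of all loci were. In neither comparison was any of the 27 higher (0 of 27), against 14.6% of all loci in Cyc against Mock SAMs and 15.1% in Dex+Cyc against Dex SAMs. Loci with a negative change in both comparisons numbered 18 of 27 (66.7%), against 47.5% of all loci, while 3 were positive in both and 6 changed sign. All 3 Cyc arrays lay below all 3 Mock arrays for 5 mitochondrial loci, where 31.9% of all loci did, and all 3 Dex+Cyc arrays lay below all 3 Dex arrays for 7, where 32.4% did. All 6 arrays with Cyc lay below all 6 without it only for nad4L among the 27 (20.4% of all loci). The test of the difference between the 2 Cyc effects passed an adjusted p of 0.05 for 0 of 27 mitochondrial loci, with the smallest adjusted p at 0.601 and it passed for 0.0266% of all loci. Under an unadjusted p of 0.05 there was 1 locus, against 8.25% of all loci.

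**Figure D2:**
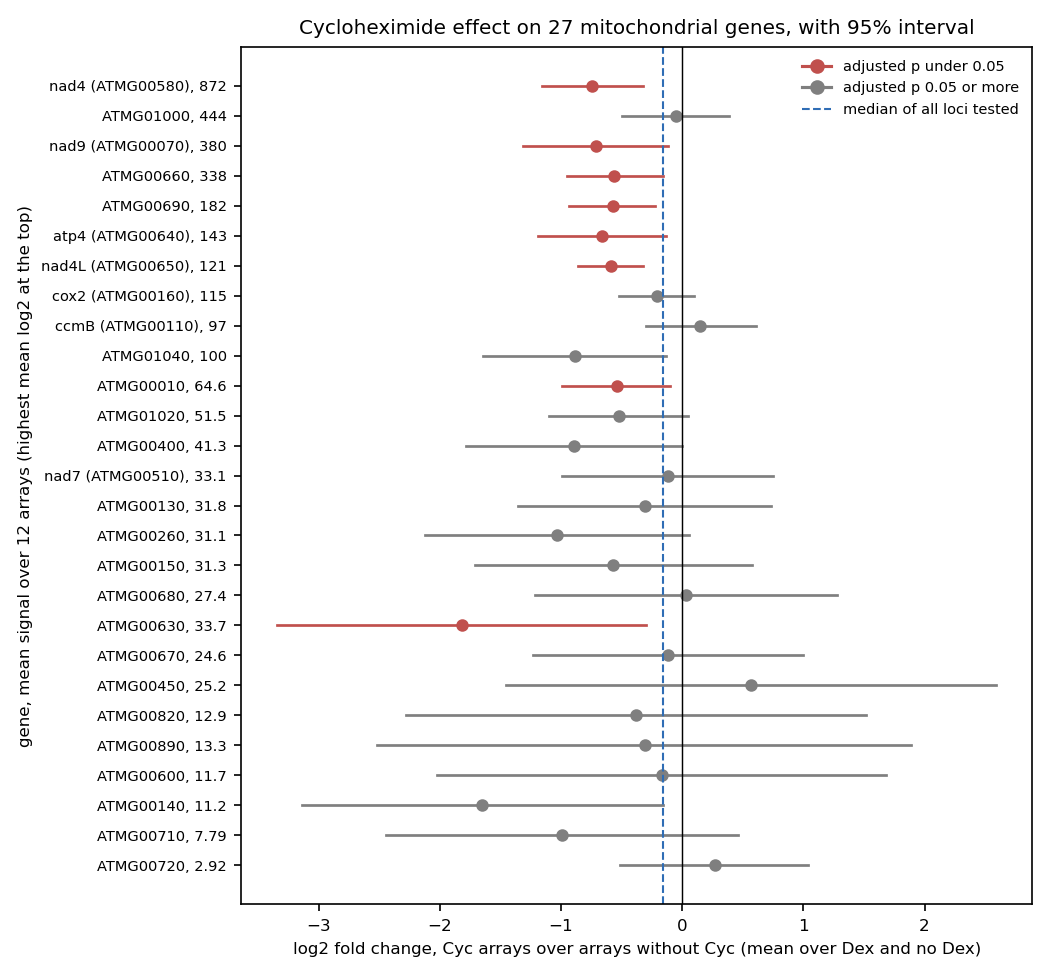
Mean effect of Cyc on each of the 27 mitochondrial loci (vertical axis, with the mean signal over 12 arrays beside each name) as a log2 fold change with its 95% interval (horizontal axis), the mean of Cyc over Mock and Dex+Cyc over Dex. The 8 red loci had an adjusted p under 0.05 and all lie left of 0, and the dashed line marks the median of all loci at -0.16.

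Complex I, the NADH dehydrogenase that feeds electrons into the respiratory chain, is represented by 4 of the ATMG loci. Of these, 3 were lower with Cyc at an adjusted p under 0.05 in the mean effect, as were 32.3% of all loci. Of the complex I genes named by symbol only, nad5 was lower by that rule. The others, nad1, nad2 and nad6, were not (limma adjusted p = 0.0672, 0.0732 and 0.664). nad4 (ATMG00580), a membrane arm subunit, read 698, 493 and 716 on the Cyc arrays, against 679, 1080 and 1190 on the Mock arrays. It read 606, 528 and 866 on the Dex+Cyc arrays, against 1380, 1170 and 1070 on the Dex arrays. The Dex+Cyc and Dex arrays did not overlap, and without Dex 1 Mock array fell among the Cyc arrays. The log2 fold change of nad4 was -0.88 ± 0.26 with Dex (SE, limma adjusted p = 0.0242), -0.61 ± 0.26 without Dex (adjusted p = 0.0971) and -0.74 ± 0.19 in the mean (adjusted p = 0.00753).

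nad4L (ATMG00650), a small membrane subunit of the same complex, had the smallest adjusted p of the 27 loci. Its signals were 116, 102 and 71.7 on the Cyc arrays, against 135, 158 and 140 on the Mock arrays. With Dex they were 97.4, 96.4 and 99.3 on the Dex+Cyc arrays, against 133, 141 and 163 on the Dex arrays. Neither pair of groups overlapped. Limma gave a log2 fold change for nad4L of -0.61 ± 0.17 without Dex (adjusted p = 0.0167), -0.57 ± 0.17 with Dex (adjusted p = 0.0233) and -0.59 ± 0.12 in the mean (adjusted p = 0.00228), that is 0.664 of the level without Cyc.

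nad9 (ATMG00070) codes for a subunit of the peripheral arm of complex I. It read 157, 283 and 364 on the Cyc arrays, against 250, 571 and 489 on the Mock arrays, and these groups overlapped. On the Dex+Cyc arrays it read 248, 335 and 339, against 508, 411 and 608 on the Dex arrays, which lay apart. Its mean log2 fold change of -0.71 ± 0.26 had an adjusted p of 0.0459, and the 2 single comparisons did not pass (adjusted p = 0.169 and 0.158, limma). nad7 (ATMG00510), another peripheral arm subunit, had low signals, at 37.8, 17.5 and 6.75 in Cyc SAMs, against 20.3, 37.7 and 27.6 in Mock SAMs. With Dex it read 68.5, 46.5 and 33.8 in Dex+Cyc SAMs, against 28.3, 38.3 and 34.8 in Dex SAMs. Its mean Cyc effect was -0.12, with a 95% interval of -0.99 to 0.75 that holds both a fall like that of nad4 and none.

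The ATP synthase, which uses the proton gradient to make ATP, is represented by atp4 (ATMG00640), the gene of the b subunit of its membrane part. RefSeq places atp4 next to nad4L on the mitochondrial genome. atp4 read 90.2, 134 and 108 on the Cyc arrays, against 141, 213 and 148 on the Mock arrays, with no overlap. On the Dex+Cyc arrays it read 62.7, 169 and 117, against 201, 166 and 170 on the Dex arrays, where 1 Dex+Cyc array reached the Dex range. The mean log2 fold change of atp4 was -0.66 ± 0.23 (SE, limma adjusted p = 0.0395), close in size to the -0.59 of nad4L.

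Not all of the loci that code for a protein of known function were lower past the threshold. cox2 (ATMG00160), the copper-binding subunit of cytochrome c oxidase, read 108, 104 and 117 in Cyc SAMs, against 109, 171 and 110 in Mock SAMs. With Dex it read 106, 89.9 and 113 in Dex+Cyc SAMs, against 105, 142 and 109 in Dex SAMs. Apart from the second Mock and the second Dex array, the values without Cyc lay within those with Cyc. Its mean log2 fold change of -0.21 did not pass (95% interval -0.52 to 0.10, limma adjusted p = 0.256). ccmB (ATMG00110), which encodes a membrane protein of the cytochrome c maturation system, read 62.7, 117 and 106 in Cyc SAMs, against 66.9, 102 and 87.8 in Mock SAMs. It read 93.8, 138 and 98.5 in Dex+Cyc SAMs, against 105, 73.2 and 113 in Dex SAMs. Its mean log2 fold change was 0.15, with a 95% interval of -0.30 to 0.61 (limma adjusted p = 0.571). Whether cox2 or ccmB differed from the nad genes in response was not tested.

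**Figure D3:**
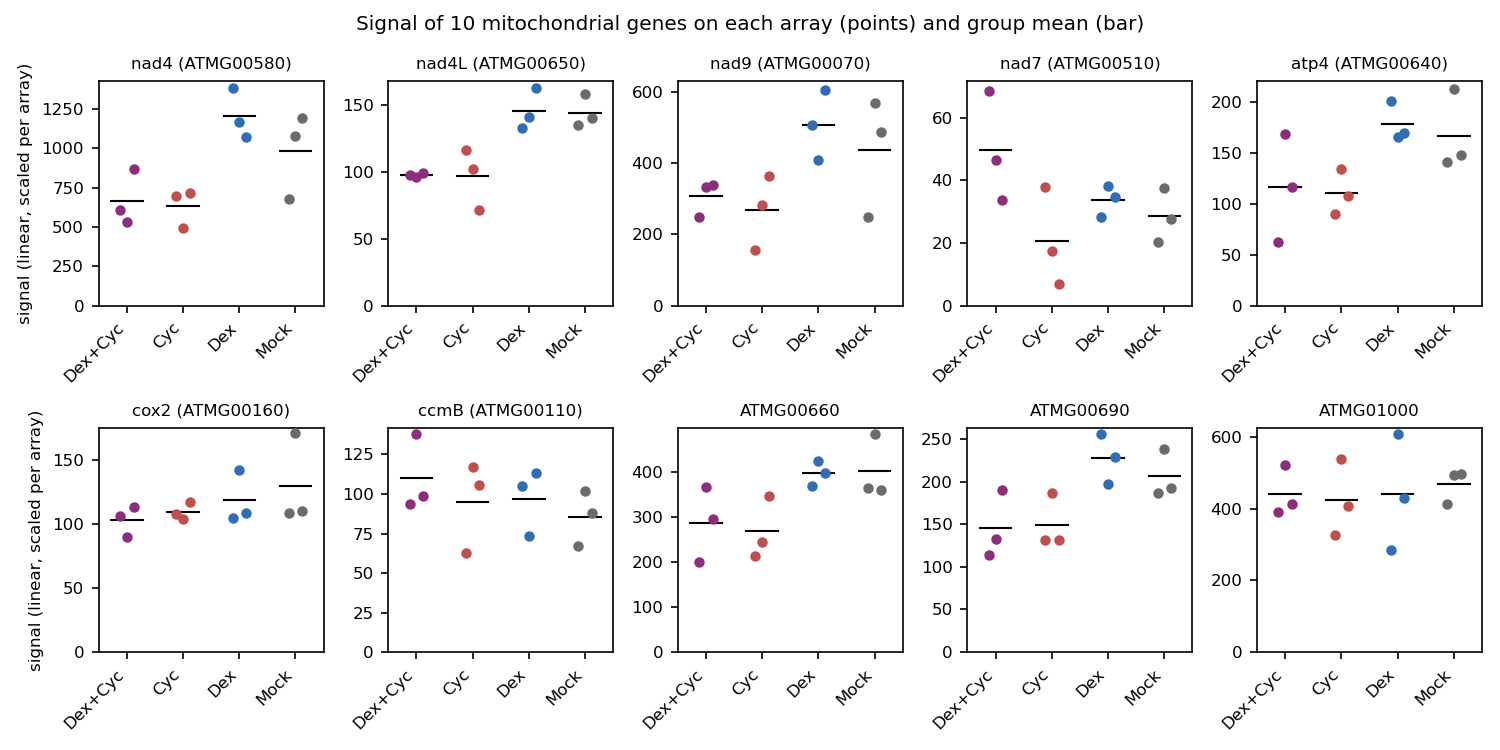
Signal on each array (points) and group mean (bar) for 10 mitochondrial genes, in Dex+Cyc, Cyc, Dex and Mock SAMs (n = 3 arrays each), on a linear axis that starts at 0 in every panel. Only nad4L has every array with Cyc below every array without it, and for the other genes shown the arrays overlap.

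Among the ORFs, ATMG00690 and ATMG00660 were lower with Cyc in the mean effect. ATMG00690, annotated as a hypothetical protein like ribosomal protein S3, read 131, 187 and 131 in Cyc SAMs, against 187, 239 and 193 in Mock SAMs. It read 114, 133 and 190 in Dex+Cyc SAMs, against 256, 197 and 229 in Dex SAMs. The groups lay apart with Dex and met without it, and the mean log2 fold change was -0.57 ± 0.16 (SE, limma adjusted p = 0.0120). ATMG00660 read 213, 244 and 347 in Cyc SAMs, against 365, 483 and 359 in Mock SAMs. It read 200, 367 and 295 in Dex+Cyc SAMs, against 369, 423 and 397 in Dex SAMs. Both pairs lay apart, and the mean log2 fold change was -0.56 ± 0.18 (adjusted p = 0.0244).

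The other ORFs that passed in some comparison were dim. ATMG00010 averaged 51.9 ± 23.8 in Cyc and 69.0 ± 6.73 in Mock SAMs, and 55.5 ± 9.21 in Dex+Cyc and 82.0 ± 2.64 in Dex SAMs (SD, n = 3 each), with a mean log2 fold change of -0.54 ± 0.20 (adjusted p = 0.0439). The largest fitted mean Cyc effect of the 27 was that of ATMG00630, at -1.82 ± 0.68 (adjusted p = 0.0474), and its arrays were widely spread, at 3.08, 4.61 and 41.8 in Cyc SAMs, against 49.9, 39.1 and 74.0 in Mock SAMs. With Dex it averaged 23.4 ± 16.4 in Dex+Cyc and 40.8 ± 19.4 in Dex SAMs. ATMG00140 was at 2.36, 3.18 and 4.65 in Cyc SAMs, against 13.9, 26.7 and 23.5 in Mock SAMs (adjusted p = 0.0463), and averaged 6.87 ± 6.28 in Dex+Cyc and 13.1 ± 13.8 in Dex SAMs. ATMG00400 averaged 14.6 ± 11.0 in Dex+Cyc and 44.7 ± 21.4 in Dex SAMs (adjusted p = 0.0295), but 51.2 ± 8.48 in Cyc and 54.5 ± 26.6 in Mock SAMs. Its difference between the 2 Cyc effects did not pass (adjusted p = 0.601).

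The remaining ORFs gave no change past the threshold. ATMG01000, on a probe set that the array design marks as shared between transcripts, averaged 424 ± 108 in Cyc and 468 ± 47.0 in Mock SAMs, and 442 ± 69.4 in Dex+Cyc and 441 ± 163 in Dex SAMs. Its mean Cyc effect was -0.05 (95% interval -0.50 to 0.39, adjusted p = 0.850). ATMG01040 averaged 76.0 ± 46.2 in Cyc and 135 ± 43.6 in Mock SAMs, and 71.8 ± 28.8 in Dex+Cyc and 119 ± 17.8 in Dex SAMs, a mean log2 fold change of -0.88 ± 0.34 that missed the threshold (adjusted p = 0.0522). The other 12 loci had mean signals of 2.92 to 51.5 and within-group SDs of 0.47 to 1.83 log2 units. Their mean Cyc effects ran between -1.03 and 0.57, 9 of them negative and 3 positive, and the smallest adjusted p was 0.107.

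Next came the 10 mitochondrial genes named by symbol only. All 10 had a negative mean Cyc effect, with a median log2 fold change of -0.72, and 4 were lower at an adjusted p under 0.05: nad5, ccmFC, cox1 and ccmFN1. Among all loci 58.1% were negative and 32.3% lower by that rule, so 4 of 10 is near the background. nad2, dim at a mean signal of 21.0, was lower in Cyc against Mock SAMs (log2 fold change -2.03, limma adjusted p = 0.0264). In Dex+Cyc against Dex SAMs the change of nad2 was -0.09 (adjusted p = 0.931). By the 2-fold rule 7.32% of all loci were called lower in Cyc against Mock SAMs. Of the 37 mitochondrial genes only nad5, a membrane arm subunit of complex I, was called there. It read 125, 98.9 and 119 in Cyc SAMs, against 227, 267 and 281 in Mock SAMs, a log2 fold change of -1.18 (limma adjusted p = 0.000339). On the Dex+Cyc arrays nad5 read 181, 197 and 234, against 425, 348 and 309 on the Dex arrays, a log2 fold change of -0.82 (adjusted p = 0.00294). The 2-fold call of nad5 in Cyc against Mock SAMs held in each of the 12 fits that left out 1 array, and with 32 added to each signal its log2 fold change there was -0.99, just short of 2-fold. The probe sets of nad5 and ccmFC are among those marked as shared between transcripts. A second probe set of nad5, without that mark, gave a mean Cyc effect of -0.81 (adjusted p = 0.0136, fitted over all probe sets). Its change was -1.21 without Dex (adjusted p = 0.0134) and -0.41 with Dex (adjusted p = 0.365).

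cox1, the catalytic subunit of cytochrome c oxidase, read 342, 321 and 354 in Cyc SAMs, against 372, 679 and 562 in Mock SAMs. It read 287, 301 and 328 in Dex+Cyc SAMs, against 484, 469 and 646 in Dex SAMs. All 6 arrays with Cyc lay below all 6 without it, and the mean log2 fold change was -0.71 ± 0.15 (SE, limma adjusted p = 0.00293). ccmFN1 and ccmFC, which like ccmB serve cytochrome c maturation, lay apart in the same way. Of the 10 genes named by symbol only, 3 lay apart so, as did 20.4% of all loci. ccmFN1 averaged 764 in Cyc and 1390 in Mock SAMs, and 941 in Dex+Cyc and 1470 in Dex SAMs, with a mean log2 fold change of -0.74 ± 0.16 (adjusted p = 0.00289). ccmFC averaged 385 in Cyc and 549 in Mock SAMs, and 423 in Dex+Cyc and 610 in Dex SAMs, with a mean log2 fold change of -0.52 ± 0.07 (adjusted p = 0.000197). The mean effects of nad5, cox1, ccmFN1 and ccmFC passed an adjusted p of 0.05 in all 12 fits that left out 1 array.

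Probe sets of a single gene did not all give the same value. nad1, a complex I subunit whose RNA is joined from separate transcripts by trans-splicing, is read by 7 probe sets annotated to it alone. Their mean Cyc effects ran between -0.85 and 0.31, and 2 passed an adjusted p of 0.05, at -0.85 (adjusted p = 0.00103) and -0.79 (adjusted p = 0.0134). Among all probe sets 32.2% were lower by that rule, so 2 of 7 is near the background. The nad1 probe set of highest mean log2 signal, which stood for the gene, gave -0.35 (adjusted p = 0.0674). The one of highest mean signal on the linear scale, 110, was that at -0.79. Which part of nad1 each probe set reads is not analysed here.

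The second question was whether activating WUS changed mitochondrial transcripts. In Dex against Mock SAMs 0 of 27 mitochondrial loci passed either rule, with 0 under an unadjusted p of 0.05 (19.3% of all loci) and the smallest adjusted p at 0.496 (limma), where 5.28% of all loci passed an adjusted p of 0.05 and 1.18% were called at 2-fold. Their median log2 fold change was 0.01. The 95% interval lay within 2-fold in both directions for 9 loci: nad4, nad4L, atp4, cox2, ccmB, ATMG00010, ATMG00660, ATMG00690 and ATMG01000. For nad4L the change was 0.01 (95% interval -0.37 to 0.39), for cox2 -0.11 (-0.55 to 0.33) and for nad4 0.33 (-0.26 to 0.92). For the other 18 loci a 2-fold change in at least one direction was within the interval.

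Outside the 27, a dim probe set annotated to both nad1 and a chromosome 2 locus was higher with Dex. It read 40.2, 37.3 and 64.0 on the Dex arrays, against 11.3, 10.0 and 18.4 on the Mock arrays, which lay apart. Its log2 fold change was 1.84 ± 0.44 (SE, limma adjusted p = 0.0461), and it passed in 3 of the 12 fits that left out 1 array, in which the adjusted p ran between 0.0311 and 0.150. In Dex+Cyc against Cyc SAMs its change was 0.05 (95% interval -0.95 to 1.05), and which of the genes gave the signal cannot be told apart.

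In Dex+Cyc against Cyc SAMs 0 of 27 loci passed either rule, with the smallest adjusted p at 0.121, where 1.58% of all loci passed an adjusted p of 0.05 and 0.106% were called at 2-fold. Under an unadjusted p of 0.05 there were 4 loci, 2 lower and 2 higher, near the 13.8% of all loci by that rule. The median log2 fold change was 0.09. nad4L changed by 0.05 (95% interval -0.33 to 0.43) and nad4 by 0.06 (-0.53 to 0.65). The lower end of the range was ATMG00400, at -2.07 ± 0.56 (SE, adjusted p = 0.121), with 10.9, 5.97 and 27.1 on the Dex+Cyc arrays, against 47.8, 44.9 and 60.9 on the Cyc arrays. Of the genes named by symbol only, nad5 was higher in Dex+Cyc than in Cyc SAMs, by 0.84 ± 0.16 on the log2 scale (adjusted p = 0.0415). That call passed in only 1 of the 12 fits that left out 1 array (without Dex replicate 1), in which the adjusted p ran between 0.0431 and 0.156, and it was lost with the replicate block (adjusted p = 0.0934). For nad5 the change in Dex against Mock SAMs was 0.47 ± 0.16 (adjusted p = 0.138). These nad5 values come from a probe set marked as shared between transcripts. The nad5 probe set without that mark changed by 0.44 in Dex+Cyc against Cyc SAMs (adjusted p = 0.633, fitted over all probe sets). In Dex against Mock SAMs it changed by -0.37 (adjusted p = 0.612).

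Taken per array, the mitochondrial loci can be summed up by the median, over the 27, of log2 signal minus each locus's mean over the 12 arrays. This median lay between -0.30 and -0.10 on the Cyc arrays and between 0.00 and 0.42 on the Mock arrays. It lay between -0.52 and 0.07 on the Dex+Cyc arrays and between 0.17 and 0.42 on the Dex arrays. The groups with and without Cyc overlapped only through Dex+Cyc replicate 3 at 0.07 and Mock replicate 1 at 0.00. Leaving out Dex+Cyc replicate 1, the lowest array at -0.52, moved the median change of the 27 loci in Dex+Cyc against Dex SAMs to -0.30, against -0.57 with all arrays, and left 0 of its 4 loci past an adjusted p of 0.05. The same median over the 72 plastid loci, whose RNAs also mostly lack poly(A) tails, ran between -0.49 and -0.42 on the Cyc and between 0.20 and 0.48 on the Mock arrays, with no overlap.

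**Figure D4:**
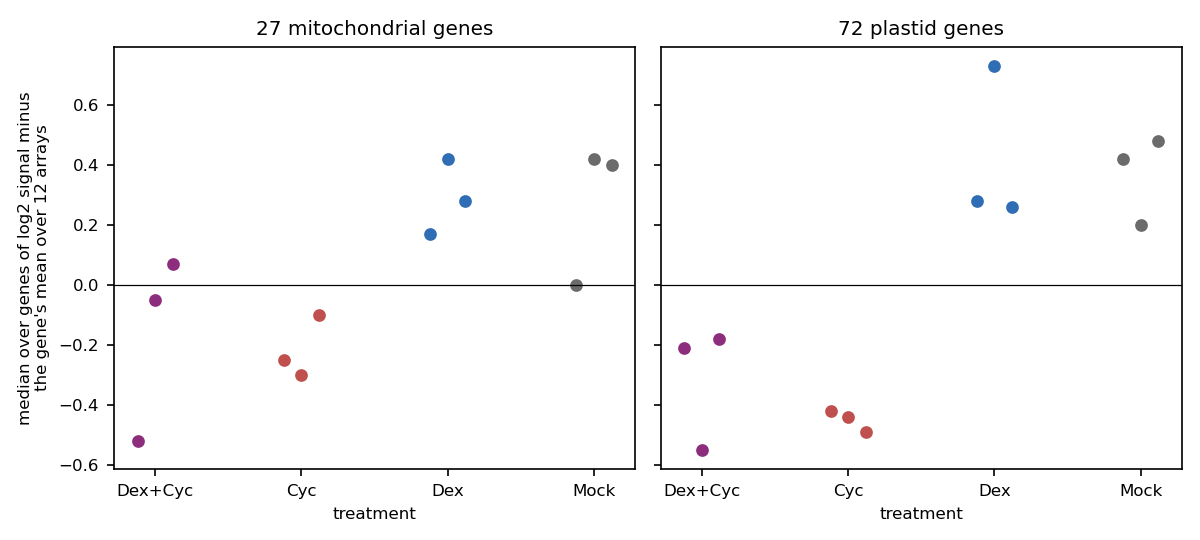
Median over genes of log2 signal minus the gene's mean over the 12 arrays (vertical axis) on each array, for the 27 mitochondrial loci (left panel) and the 72 plastid loci (right panel), by treatment. Mitochondrial medians ran between -0.52 and 0.07 with Cyc and between 0.00 and 0.42 without, and plastid medians between -0.55 and -0.18 with Cyc and between 0.20 and 0.73 without.

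Measures of RNA and tissue were read on the same arrays. The log2 ratio of the 3′ to the 5′ GAPDH control probe set was 0.64 to 1.06 on the 6 arrays with Cyc and 1.03 to 1.35 on the 6 without. The same ratio for actin was 4.05 to 5.14 with Cyc and 3.89 to 4.50 without, and that for ubiquitin was 0.84 to 1.24 with Cyc and 0.66 to 1.18 without. The 25S ribosomal RNA control read 182 to 367 with Cyc and 185 to 858 without. Of the markers looked for, 3 of 6 for the SAM (CLV3, KNAT1 and UFO), 1 of 9 for green tissue (RCA) and 1 of 4 for floral organs (PI) could be matched to a probe set. RCA, the activase of Rubisco, was lower with Cyc, at 1660 to 2050 in Cyc SAMs, against 2650 to 2870 in Mock SAMs (limma adjusted p = 0.00228). The summed SAM markers were 1800 to 2140 in Cyc SAMs, against 3170 to 3880 in Mock SAMs. Most of that sum is KNAT1, at 1290 to 1630 in Cyc and 2610 to 3320 in Mock SAMs (log2 fold change -0.95, adjusted p = 0.00525), whereas the changes of CLV3 (0.21, adjusted p = 0.728) and UFO (-0.20, adjusted p = 0.559) did not pass. PI had a log2 fold change of -0.83 (adjusted p = 0.0194). The part of these measures in the mitochondrial values was not tested.

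The same comparison was made for other gene lists. Of 72 plastid loci, 58 were lower and 0 higher with Cyc at an adjusted p under 0.05 in the mean effect, with a median log2 fold change of -0.81, and 14 were called lower at 2-fold in Cyc against Mock SAMs, among them psbC and rbcL. Of 34 loci in the chromosome 2 insertion, 4 were lower and 1 higher, with a median of -0.28. Nuclear genes for respiratory chain subunits were measured at 21 of 39 listed loci, of which 13 were lower and 2 higher, with a median of -0.33. One of those that were higher, CYTC-2, which encodes the electron carrier cytochrome c, read 1710, 1960 and 1850 in Cyc SAMs, against 225, 219 and 243 in Mock SAMs, a log2 fold change of 3.01 (limma adjusted p = 3.5e-07). Among all loci 32.3% were lower and 18.3% higher in the mean effect, and 7.32% were called lower at 2-fold in Cyc against Mock SAMs. The differences between these lists were not tested.

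**Figure D5:**
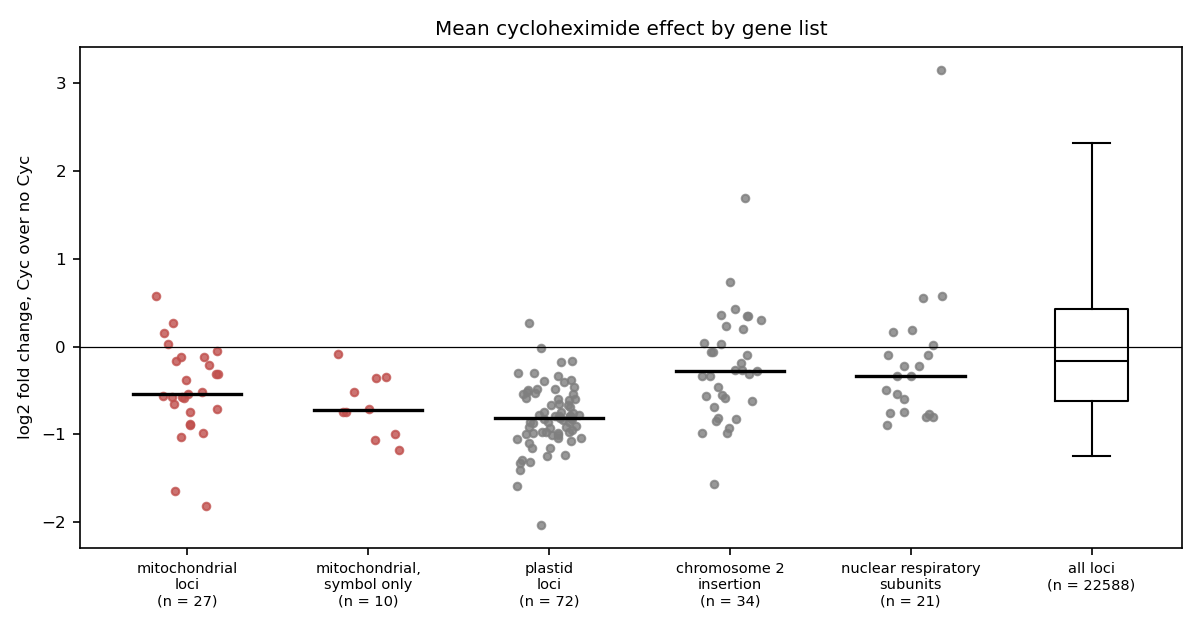
Mean effect of Cyc as a log2 fold change (vertical axis) for the 27 mitochondrial loci, the 10 mitochondrial genes named by symbol only, and loci of 3 comparison lists, each point a locus and each bar a median. The box shows the middle 50% of all 22588 loci with whiskers at their 5th and 95th percentiles, and the medians are -0.54, -0.72, -0.81, -0.28, -0.33 and -0.16 from left to right.

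Nuclear genes for the machinery that transcribes and processes mitochondrial RNA were measured at 7 of 18 listed loci. In the mean Cyc effect 3 were higher and 1 lower at an adjusted p under 0.05, with a median log2 fold change of 0.29. Of 23 listed genes for alternative respiration and mitochondrial stress, 8 were measured. In the mean effect 6 of them were higher and 1 lower, at a log2 fold change of -0.84. By that rule 18.3% of all loci were higher and 32.3% lower. NDB2, an alternative NADH dehydrogenase of the inner membrane, averaged 1340 ± 300 in Cyc and 265 ± 47.8 in Mock SAMs (SD, n = 3 each), a log2 fold change of 2.34 (limma adjusted p = 1.21e-05). AT5G51440, a small heat shock protein of mitochondria, averaged 3130 ± 388 in Cyc and 167 ± 67.7 in Mock SAMs, a log2 fold change of 4.30 (adjusted p = 2.39e-06). AT2G21640, a protein induced by oxidative stress in mitochondria, averaged 5230 ± 254 in Cyc and 598 ± 40.4 in Mock SAMs, a log2 fold change of 3.13 (adjusted p = 1.79e-07). AT5G09570, a small mitochondrial protein, had a log2 fold change of 2.69 (adjusted p = 4.34e-05).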

How the data were processed

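Total RNA of SAMs was labelled and hybridised to Affymetrix ATH1 arrays, and the authors deposited intensity signals made with MAS5, each array scaled to a trimmed mean of 500 (the values bear this out with 2% trimmed at each end). The paper's methods give RNA from many plants pooled per treatment. Per the labels, the tools were MAS5 and affy, with versions not given in the sources used here. Members are probe sets paired with an ATMG locus in the supplementary tables, of which parts may be shortened. The members and lists were chosen with earlier results of these data known. The file holds 22810 probe sets, and all but the 64 controls were analysed. In the platform annotation 13513 have 1 symbol, 503 have several and 8730 are unlisted, and 8186 entered the fit without a locus. Where a locus had several probe sets, the one of highest mean log2 signal stood for it, giving 22588 in all.

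Signals were taken to log2 with no filter and no added value, and 1 linear model with 4 group means was fitted over the 12 arrays in R 4.3.3 with limma 3.58.1 (lmFit, eBayes), checked first on simulated data. P-values were adjusted by Benjamini-Hochberg. The mean Cyc effect averages Cyc minus Mock and Dex+Cyc minus Dex. The number of arrays limits the precision. Replicates correlated at 0.938 to 0.949 over loci, and no pair of arrays shared identical values. Named genes were all loci with an annotated product, the ORFs with an adjusted p under 0.05 in any contrast, the 5 ORFs with the highest mean signal, and up to 4 called genes per comparison list. Coordinates and sequences are not given, since the sources name no genome build. Alternatives were other normalizations, an added value, filters, blocks, smaller fits and the omission of single arrays. A further one, with the 10 genes named by symbol only, was chosen after seeing the data.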

Additional observations from a re-analysis of the deposited data

How the results depend on the processing

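No direction of a mitochondrial locus past an adjusted p of 0.05 reversed under any alternative. Calls at 2-fold in Cyc against Mock numbered 0 of 27, where 15.6% of all loci were called. They became 1, a lower one, when only the arrays compared were fitted, where 5.32% of all loci were called lower. With the genes named by symbol only (chosen after seeing the data) they numbered 1 of 37. At an adjusted p under 0.05 with no fold limit 2 passed, with 4 in Dex+Cyc against Dex and 8 in the mean effect. Leaving out 1 array gave 0 to 1 such calls at 2-fold in each of the 3 Cyc contrasts. There was 1 in Cyc against Mock without Cyc replicate 3, where 6.75% of all loci were called lower. Dex+Cyc against Dex had 1 without Dex+Cyc replicate 3 (6.22%). In the mean effect there was 1 without Cyc replicate 3 (6.83%) or Dex replicate 2 (6.62%). At an adjusted p under 0.05, the count for Cyc against Mock was 2 of 27, where 26.5% of all loci were lower. It was 4 with quantile normalization (26.5% of all loci) and 1 with only the arrays compared (20.9%). A variance trend and robust shrinkage gave 5 (28.1%). With the genes named by symbol only it was 7 of 37. That last set gave 8 in Dex+Cyc against Dex, where 24.7% of all loci were lower. It gave 1 in Dex+Cyc against Cyc, where 1.58% of all loci passed in either direction. Without single arrays the counts ran from 0 (without Mock replicate 2) to 4 (without Cyc replicate 3 or Dex+Cyc replicate 1) for Cyc against Mock, with 1 without Dex replicate 1, Dex+Cyc replicate 3 or Mock replicate 3, from 0 (without Dex+Cyc replicate 1) to 5 for Dex+Cyc against Dex, and from 3 (without Mock replicate 2) to 8 for the mean effect. Other settings raised the mean effect count, to 12 with quantile normalization (33.4% of all loci), 10 with 32 added to each signal (33.3%) and 9 with median centring (34.0%). The mean effect count was 4 without Cyc replicate 1, Dex replicate 3 or Mock replicate 3, and 5 without Cyc replicate 2, Dex replicate 1, Dex replicate 2 or Dex+Cyc replicate 1. The count for Dex+Cyc against Dex was 1 without Dex replicate 2 or Dex+Cyc replicate 2 and 2 without Dex replicate 3. With single arrays left out, 22.6% to 26.1% of all loci were lower in Cyc against Mock by that rule. The shares were 20.6% to 25.2% in Dex+Cyc against Dex and 30.4% to 31.9% in the mean effect. With 32 added to each signal, which shrinks the changes of dim genes, the median log2 fold change of the 27 loci was -0.23 in Cyc against Mock, -0.26 in Dex+Cyc against Dex and -0.23 in the mean effect, where the median of all loci was -0.08. Without single arrays the median in Dex+Cyc against Dex ran between -0.70 and -0.30. Samples that share a replicate number correlated at -0.088 to 0.254 in their deviations from the group means, and samples with different numbers at -0.231 to 0.182. Cyc and Dex+Cyc arrays correlated at 0.254, 0.21 and 0.025 for replicates 1, 2 and 3. They correlated at -0.231 and -0.214 where replicates 1 and 2 were crossed. Dex+Cyc and Mock arrays correlated at 0.048, 0.233 and -0.015 for replicates 1, 2 and 3. The median was 0.041 for a shared number and -0.02 for different numbers. The ranges overlap, which does not settle whether the numbers pair the samples, and the main fit did not pair them. With the replicate block the mean effect count stayed at 8 (31.8% of all loci lower). The block gave 3 in Cyc against Mock (25.9%) and 3 in Dex+Cyc against Dex (23.8%). Low signal and the number of arrays both limit the precision, and 19 of the 27 loci were among the dimmest 40%.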

Other observations

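Besides the loci described, 12 probe sets are annotated to several genes that include a mitochondrial one, so that their signal cannot be given to a single gene. All 12 had a negative mean Cyc effect, with log2 fold changes between -0.84 and -0.19 and a median of -0.56. At a limma adjusted p under 0.05, 7 were lower and 0 higher with Cyc in the mean effect, where 32.3% of all loci were lower and 18.3% higher. In Dex against Mock SAMs 1 of the 12 was higher and 0 lower, where 5.28% of all loci passed in either direction.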
